A study of Homo sapiens with 10 samples.

Results

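The data described here are 4 libraries of ESI017 human pluripotent stem cells, 2 collected after 18 h and 2 after 6 h of 8 µM CHIR99021, out of 10 libraries in the series. They were chosen by their labelled treatment. ESI017 is an established human embryonic stem cell line, labelled as wild type, and was kept in mTeSR1, a defined medium for pluripotent cells. Cells were plated 24 h before treatment. The other groups, with 2 libraries each, were 300 ng/ml recombinant WNT3A for 18 h, WNT3A for 6 h and mTeSR1 alone. mTeSR1 was the base medium throughout, and no solvent control for CHIR99021 is labelled. The 6 h CHIR99021 libraries came from biological repeats 1 and 2. Both 18 h libraries came from biological repeat 2, and are called replicate 1 and replicate 2 here by name only. The labels do not say whether they came from separate wells, so the spread between them may be technical. The p-values rest on a spread estimated from all 10 libraries in a single fit. They do not measure variation beyond these libraries. The 2 carry the same labelled treatment and time but stood apart in streak genes, as in TBXT with 3.52 CPM (counts per 1000000 counts) in replicate 1 and 49.2 CPM in replicate 2. Whether either label is wrong was not tested, and results that rest on these libraries are given for each of them.

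CHIR99021 inhibits the kinase GSK3. GSK3 is part of the destruction complex that marks beta-catenin for degradation, so its inhibition lets beta-catenin accumulate and act with TCF and LEF factors at WNT target genes without any ligand or receptor. WNT3A reaches the same complex through Frizzled and LRP receptors on the cell surface. In pluripotent cells this pathway is known for inducing genes of the primitive streak, the embryonic site at which mesoderm and endoderm form, and for turning on genes that feed back on the pathway.

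The 4 CHIR99021 libraries held about 16648100 to 18332700 estimated counts, against 16648100 to 26732700 over all 10. CPM were scaled by library composition. A count of 0 allows up to 0.112 to 0.18 CPM, depending on the library. This floor covers counting error only. The 18 h CHIR99021 pair had the highest agreement of the 5 groups (Pearson r over genes of log2 CPM 0.979, against 0.960 to 0.977). It was also the only pair within a single repeat, as every other group paired both repeats. These correlations are therefore not like for like. Mitochondrially encoded genes took 5.12% and 5.14% of the counts at 18 h, against 3.71% and 5.02% at 6 h. Between the repeats, 354 genes had a higher level and 555 a lower one in repeat 2, and the comparison of 18 h with 6 h carried the repeat as a block.

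A single gene passed the test between 18 h and 6 h of CHIR99021. SEZ6, which encodes a neuronal membrane protein and lies on the minus strand of chromosome 17 (GRCh38, bases 28954901 to 29006440), fell. It had 1.43 and 1.52 CPM at 18 h, against 6.71 and 8.36 CPM at 6 h. In mTeSR1 it had 9.83 and 13.6 CPM. The 18 h libraries lay close together and below every 6 h and mTeSR1 library. The log2 change was -2.50 (SE 0.23, 95% interval -3.02 to -1.98, edgeR quasi-likelihood test with Benjamini-Hochberg adjusted p = 0.038, n = 2 libraries each), which is 5.65-fold lower at 18 h. SEZ6 had 0.659 and 0.748 CPM after 18 h of WNT3A, against 8.54 and 10.1 CPM after 6 h of WNT3A.

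SEZ6 was 1 of 15251 genes tested (0.00656%), and no gene was called higher. At an unadjusted p under 0.05, edgeR gave 477 genes higher (3.13%) and 568 lower (3.72%) at 18 h. DESeq2 called 68 higher and 66 lower, and limma-voom called 0. The SEZ6 call was lost without the repeat block, which left 0 genes. It was also lost when any 1 library other than the 18 h replicate 1 was left out, and 0 genes were then called except without the 18 h replicate 2, where FAM220A alone was. Without the 18 h replicate 1, 83 genes were called, 56 of them higher. Where no adjusted p is given below, a gene did not pass, and its values are descriptive.

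The genes with the next lowest p were chosen after their values were seen. Among those higher at 18 h, ALK, a receptor tyrosine kinase gene, had 9.49 and 15.3 CPM at 18 h, against 2.76 and 1.73 CPM at 6 h (log2 2.81, SE 0.31, adjusted p = 0.085). SLC39A8, encoding a zinc and manganese importer, had 124 and 126 CPM at 18 h, against 39.1 and 63.2 CPM at 6 h. Every 18 h library was above every 6 h library for both. ADAMTS19, a secreted metalloprotease gene, had 103 and 135 CPM at 18 h, against 48.3 and 59.0 CPM at 6 h. STRA6, the receptor for retinol-binding protein, had 35.4 and 49.4 CPM at 18 h, against 21.7 and 20.1 CPM at 6 h. SP8, a zinc finger factor of the same family as SP5, had 31.0 and 69.1 CPM at 18 h, against 13.8 and 11.9 CPM at 6 h, and its 18 h libraries differed more from each other than its 6 h libraries did. TSPAN18, a tetraspanin gene, had 52.2 and 91.5 CPM at 18 h, against 29 and 21.1 CPM at 6 h.

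Among those lower at 18 h, SYP, which encodes the synaptic vesicle protein synaptophysin, had 4.48 and 2.60 CPM at 18 h, against 21.7 and 13.9 CPM at 6 h (log2 -2.00, SE 0.25, adjusted p = 0.11). GLCE, the epimerase that makes iduronic acid in heparan sulfate, had 11.3 and 10.2 CPM at 18 h, against 26.0 and 23.8 CPM at 6 h. MXD4, a MAX partner that opposes MYC, had 19.8 and 20.7 CPM at 18 h, against 44.2 and 40.7 CPM at 6 h. In all 3 the groups did not overlap, and the 6 h levels lay near those of mTeSR1, which were 21.4 and 22.1 CPM for GLCE. IDO1, a tryptophan-degrading enzyme, had 17.5 and 16.2 CPM at 18 h, against 29.1 and 33.5 CPM at 6 h. GUCA1A, an activator of guanylate cyclase known from photoreceptors, had 1.07 and 1.35 CPM at 18 h, against 6.33 and 7.28 CPM at 6 h.

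**Figure D1:**
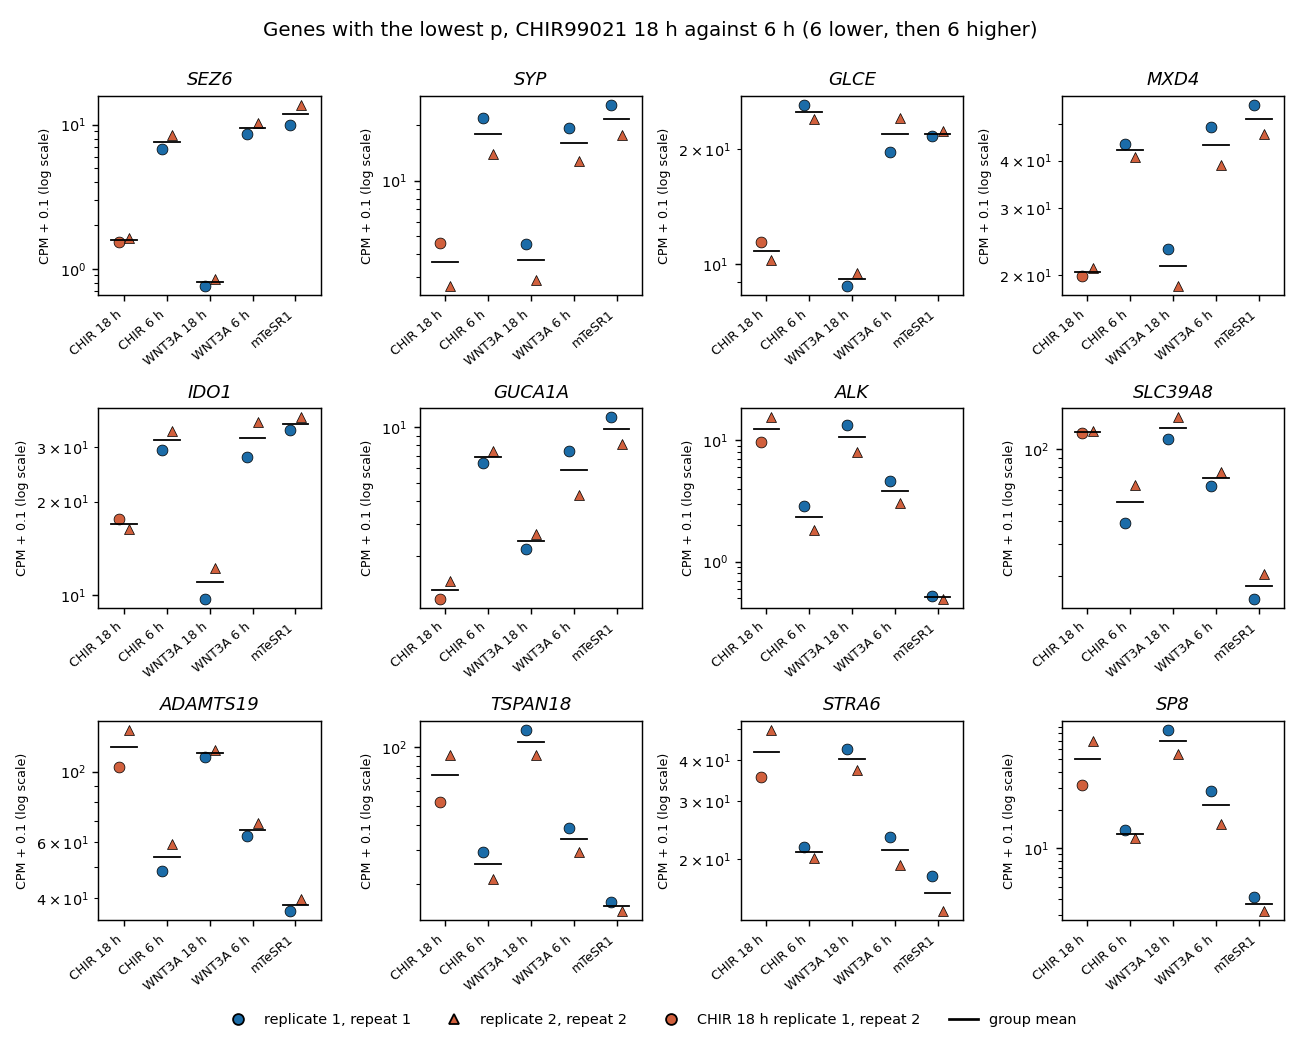
CPM plus 0.1 on a log axis in each library for the 6 genes lower (SEZ6, SYP, GLCE, MXD4, IDO1, GUCA1A) and the 6 genes higher (ALK, SLC39A8, ADAMTS19, TSPAN18, STRA6, SP8) at 18 h of CHIR99021 with the lowest p, with points for libraries and a line at the mean of each group of 2. In all 12 panels the 2 CHIR99021 18 h points lie on one side of both 6 h points.

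Over all genes, 2949 (19.3%) had both 18 h libraries above both 6 h libraries and 3198 (21%) had both below. With a fitted change of at least 2-fold as well, these were 245 (1.61%) and 365 (2.39%). Fitted changes are adjusted for the repeat, so they need not match ratios of the CPM given. Against the 6 h library of repeat 2 alone, 275 genes were at least 2-fold higher and 458 lower in the 18 h replicate 1, against 521 higher and 675 lower in the 18 h replicate 2. Of these, 155 were higher and 203 lower in both. The 2 18 h libraries are therefore given one by one below.

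WNT feedback and direct target genes were the list in which 10 of 16 tested members were higher in both 18 h libraries and 0 lower, beside 19.3% and 21% of all genes. Their median log2 change was 1.19, against 0.0023 over all genes tested. Replicate 2 was above replicate 1 in 14 of the 16, and at least 2-fold above it in 10, against 7721 and 538 of all 15251 genes. Set against the 6 h library of repeat 2, the list's median log2 ratio was 0.26 in replicate 1 and 1.54 in replicate 2.

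AXIN2, a scaffold of the destruction complex and a direct target that limits the pathway, had 120 and 249 CPM at 18 h, against 104 and 112 CPM at 6 h. NKD1, an inhibitor acting on Dishevelled, had 49.6 and 190 CPM at 18 h, against 48.2 and 41.8 CPM at 6 h. LEF1, the factor that carries beta-catenin to DNA, had 5.31 and 56.3 CPM at 18 h, against 5.52 and 2.05 CPM at 6 h. In these 3 genes replicate 1 lay at or near the 6 h level and replicate 2 well above it. SP5, a repressor induced by beta-catenin, had 135 and 370 CPM at 18 h, against 61.0 and 57.4 CPM at 6 h. RNF43, which removes Frizzled from the cell surface, had 10.8 and 31.0 CPM at 18 h, against 3.03 and 2.21 CPM at 6 h. For SP5 and RNF43 both 18 h libraries were above both 6 h libraries, replicate 2 the more so (RNF43 log2 2.89, SE 0.58, adjusted p = 0.22). TCF7 had 36.6 and 59.4 CPM at 18 h, against 22.0 and 25.9 CPM at 6 h. MYC did not separate the groups, with 92.4 and 72.5 CPM at 18 h, against 61.2 and 91.7 CPM at 6 h.

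Genes of the primitive streak and mesendoderm had a median log2 change of 1.79. Of 13 tested, 8 were higher in both 18 h libraries and 0 lower, beside 19.3% and 21% of all genes. The ratio to the repeat 2 6 h library had a median log2 of 0.70 in replicate 1 and 2.51 in replicate 2. TBXT (brachyury), the T-box factor that marks the streak, had 3.52 and 49.2 CPM at 18 h, against 1.24 and 1.56 CPM at 6 h, with 0 counts in mTeSR1. EOMES, a T-box factor of mesendoderm, had 11.2 and 74.8 CPM at 18 h, against 3.89 and 2.54 CPM at 6 h. MIXL1, a homeobox factor of the streak, had 7.40 and 84.3 CPM at 18 h, against 1.08 and 3.61 CPM at 6 h. For all 3 the groups did not overlap, and replicate 2 stood far above replicate 1. The fitted change of TBXT was correspondingly wide (log2 4.33, SE 1.37, 95% interval 0.85 to 7.81, adjusted p = 0.57). EVX1, a homeobox factor of the posterior streak, had 0.119 and 52.1 CPM at 18 h, against 1.73 and 0.539 CPM at 6 h, so the 2 18 h libraries lay on either side of 6 h. NODAL, the streak-inducing ligand, differed little between the 18 h libraries, with 124 and 140 CPM at 18 h, against 32.1 and 77.1 CPM at 6 h. FOXA2, a factor of endoderm and the anterior streak, had 3.28 and 7.11 CPM at 18 h, against 1.78 and 1.13 CPM at 6 h.

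Caudal and axial patterning genes had a median log2 change of 1.36. Of 13 tested, 8 were higher in both 18 h libraries, beside 19.3% of all genes. CYP26A1, a retinoic acid-degrading enzyme, was the 1 member lower in both, beside 21% of all genes. The median log2 ratio to the repeat 2 6 h library was 0.13 in replicate 1 and 1.70 in replicate 2. CDX2, a caudal homeobox factor, had 0.955 and 41.4 CPM at 18 h, against 1.46 and 1.08 CPM at 6 h. CDX1 had 1.13 and 27.5 CPM at 18 h, against 0.541 and 1.13 CPM at 6 h. For both genes replicate 1 had about the 6 h level. Both 18 h libraries still counted as above both 6 h libraries for CDX1, replicate 1 by 1.134 against 1.133 CPM. GBX2, a homeobox factor of the posterior neural plate, had 21.8 and 117 CPM at 18 h, against 8.60 and 9.39 CPM at 6 h. WNT5B, a ligand expressed at the streak, had 19.2 and 116 CPM at 18 h, against 7.84 and 7.07 CPM at 6 h. NKX1-2, a homeobox factor of the caudal epiblast, had 256 and 517 CPM at 18 h, against 228 and 165 CPM at 6 h. WNT8A, another ligand, had 2.15 and 3.44 CPM at 18 h, against 0.379 and 0.270 CPM at 6 h.

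**Figure D2:**
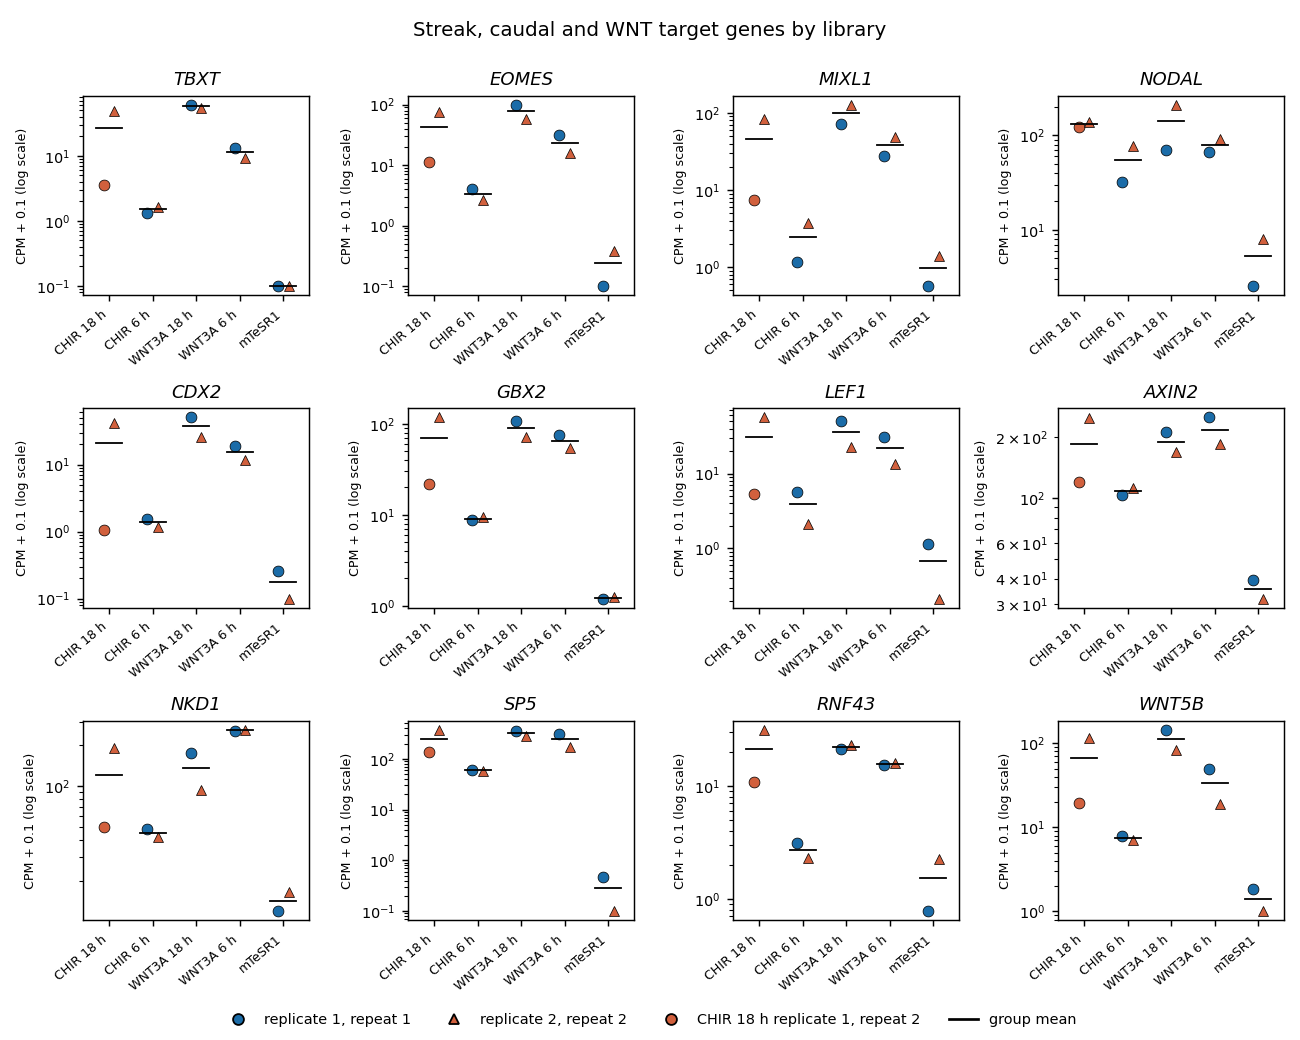
CPM plus 0.1 on a log axis in each library for 12 streak, caudal and WNT target genes, with points for libraries and a line at the mean of each group of 2. In CHIR99021 at 18 h the circle (replicate 1) lies below the triangle (replicate 2) in every panel, as in TBXT with 3.52 and 49.2 CPM.

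Once replicate 1 was left out, edgeR called 56 of 15721 genes higher (0.356%). These included 5 of 16 tested members of the WNT target list, 5 of 14 of the streak list and 6 of 13 of the caudal list. The remaining 18 h library is then assumed to vary like the other groups. Replicate 1 was the 18 h library with the lower level in most members of these lists. Leaving it out therefore favours them by choice, and nothing is read from these counts. With replicate 2 left out instead, the gene called was FAM220A. The genes higher without replicate 1 included EVX1 (log2 6.85), MIXL1, CDX2, GBX2, LEF1, TBXT, EOMES, SP5, RNF43 and AXIN2. In replicate 1 itself, EVX1 lay below both 6 h libraries. TBXT had 60.7 and 54.6 CPM after 18 h of WNT3A, against 13.2 and 9.23 CPM after 6 h of WNT3A. CDX2 had 50.4 and 25.5 CPM after 18 h of WNT3A, against 18.7 and 11.4 CPM after 6 h of WNT3A. Replicate 2 of CHIR99021 thus lay close to or within the range of the WNT3A 18 h libraries for these 2 genes, and replicate 1 lay below the WNT3A 6 h libraries.

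Promoter sequence is shown for the genes whose 250 bases upstream of the RefSeq start (GRCh38.p14) held the TCF/LEF motif CTTTGAT on either strand and whose values are given as higher at 18 h. Of 210 genes with values whose promoter was searched, a single promoter per gene, 6 held it. These were SP5, MIXL1, FGF18, GABRB2, IL17RD and SEMA6D, of which SEMA6D was lower in both 18 h libraries. The motif was held by 794 of 35116 promoters (2.26%), a set that can include several promoters of a gene. These shares lie close together, and nothing is read from the count. Among the genes of lowest p with a promoter searched, 1 of 19 higher and 0 of 19 lower held the motif. The match is in capitals, and each sequence runs 5′ to 3′ toward the start. It begins 109 bases before the start in SP5 (chr2:170715087-170715336, plus strand), 76 in MIXL1 (chr1:226223414-226223663, plus strand), 174 in FGF18 (chr5:171419397-171419646, plus strand) and 35 in GABRB2 (chr5:161546726-161546975, minus strand). A match describes these letters and is not evidence of binding.
SP5: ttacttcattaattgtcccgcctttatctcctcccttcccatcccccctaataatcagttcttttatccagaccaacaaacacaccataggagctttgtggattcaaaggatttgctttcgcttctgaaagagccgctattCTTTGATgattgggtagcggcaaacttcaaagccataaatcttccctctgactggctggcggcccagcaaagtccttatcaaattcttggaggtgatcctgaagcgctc
MIXL1: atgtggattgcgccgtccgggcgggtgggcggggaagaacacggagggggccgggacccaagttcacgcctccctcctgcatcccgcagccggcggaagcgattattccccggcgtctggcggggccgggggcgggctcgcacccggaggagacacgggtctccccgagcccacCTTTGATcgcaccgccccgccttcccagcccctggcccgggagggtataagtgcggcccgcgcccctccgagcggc
FGF18: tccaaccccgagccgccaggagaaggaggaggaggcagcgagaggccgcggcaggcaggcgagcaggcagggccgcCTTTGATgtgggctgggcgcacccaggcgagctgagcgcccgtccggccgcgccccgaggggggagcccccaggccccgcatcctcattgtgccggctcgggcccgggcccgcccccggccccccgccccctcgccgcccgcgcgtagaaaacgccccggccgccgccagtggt
GABRB2: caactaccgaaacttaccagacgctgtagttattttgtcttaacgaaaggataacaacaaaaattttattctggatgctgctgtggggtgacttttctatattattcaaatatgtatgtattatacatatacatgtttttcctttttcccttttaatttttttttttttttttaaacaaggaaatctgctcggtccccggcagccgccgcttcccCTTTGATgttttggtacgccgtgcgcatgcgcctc
FGF18, an FGF ligand, had 7.58 and 18.5 CPM at 18 h, against 2.54 and 3.51 CPM at 6 h. GABRB2, a subunit of the GABA-A receptor, had 4.48 and 13.0 CPM at 18 h, against 1.30 and 1.46 CPM at 6 h.

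Pluripotency genes had a median log2 change of -0.25, with 5 of 23 higher in both 18 h libraries (beside 19.3% of all genes) and 9 lower (beside 21%). Replicate 2 was below replicate 1 in most of them, being above it in 3 of 23, and the median log2 ratio to the repeat 2 6 h library was -0.07 in replicate 1 and -0.44 in replicate 2. The core factors did not move together with that. POU5F1 (OCT4) had 1596 and 1496 CPM at 18 h, against 1574 and 1672 CPM at 6 h. SOX2 had 380 and 331 CPM at 18 h, against 308 and 323 CPM at 6 h, and NANOG had 170 and 139 CPM at 18 h, against 96.9 and 144 CPM at 6 h. The lower members included OTX2, a factor of the epiblast and the anterior brain, with 16.6 and 7.56 CPM at 18 h, against 49.2 and 37.2 CPM at 6 h. UTF1, a chromatin factor of pluripotent cells, had 10.7 and 4.40 CPM at 18 h, against 12.9 and 24.1 CPM at 6 h. FOXD3, a forkhead repressor, had 5.55 and 2.09 CPM at 18 h, against 10.4 and 9.87 CPM at 6 h, and 54.0 and 45.6 CPM in mTeSR1. TERF1, a telomere-binding protein, had 395 and 241 CPM at 18 h, against 475 and 567 CPM at 6 h. PRDM14 had 44.6 and 11.4 CPM at 18 h, against 46.9 and 50.7 CPM at 6 h, so only replicate 2 was clearly apart.

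Of 10 anterior and neural genes, 4 were lower in both 18 h libraries (beside 21% of all genes) and 0 higher (beside 19.3%). HESX1, a repressor of the anterior neural plate, had 1.49 and 0.451 CPM at 18 h, against 6.33 and 5.61 CPM at 6 h, with 13.5 and 9.19 CPM in mTeSR1 (log2 -2.53, SE 0.46, adjusted p = 0.20). POU3F1 had 10.7 and 5.02 CPM at 18 h, against 22.1 and 14.8 CPM at 6 h. Some members were present in repeat 1 only. SIX3, a factor of the anterior brain, had 0 counts in both 18 h libraries, against 4.97 and 0 CPM at 6 h, and 10.6 and 0 CPM in mTeSR1, so repeat and time cannot be told apart for it.

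Synaptic vesicle and neurotransmitter genes had a median log2 change of -0.54. Of 19 tested, 1 passed the test (SEZ6), 11 were lower in both 18 h libraries (beside 21% of all genes) and 4 higher (beside 19.3%). The 2 18 h libraries were alike here, with median log2 ratios to the repeat 2 6 h library of -0.38 in replicate 1 and -0.37 in replicate 2. GRIK2, a kainate receptor subunit, had 0.119 and 0 CPM at 18 h, against 2.11 and 1.19 CPM at 6 h. CPLX2, a complexin that regulates vesicle fusion, had 0.716 and 0.564 CPM at 18 h, against 1.84 and 2.32 CPM at 6 h. SYT4, a vesicle synaptotagmin, had 0.895 and 0.621 CPM at 18 h, against 1.62 and 3.34 CPM at 6 h. These 3 were low at 6 h already and lower in both 18 h libraries. GAD1, which makes GABA, stood on the other side, with 23.6 and 110 CPM at 18 h, against 11.7 and 8.85 CPM at 6 h.

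SYN1, which encodes the vesicle-coating protein synapsin I, had 14.1 and 11.1 CPM at 18 h, against 18.8 and 24.9 CPM at 6 h. Its promoter is shown because it was the only one among those 210 to hold the core of the RE1 element, searched as CAGCACC, 2 bases of any kind and GGACAG on either strand, which 16 of 35116 promoters held (0.0456%). RE1 is bound by the repressor REST, which silences neuronal genes outside neurons. The match, in capitals, begins 231 bases before the start (chrX:47619858-47620107, minus strand, 5′ to 3′).
SYN1: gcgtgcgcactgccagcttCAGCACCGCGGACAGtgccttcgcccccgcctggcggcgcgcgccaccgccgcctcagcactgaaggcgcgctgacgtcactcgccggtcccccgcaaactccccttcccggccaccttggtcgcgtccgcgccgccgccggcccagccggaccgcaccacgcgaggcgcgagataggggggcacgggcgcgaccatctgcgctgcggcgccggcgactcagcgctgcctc
REST, named after its values were seen, had 118 and 139 CPM at 18 h, against 98.6 and 83.9 CPM at 6 h, with 62.2 and 63.4 CPM in mTeSR1. Its groups did not overlap (log2 0.53, SE 0.18, adjusted p = 0.51). The RE1 match is not evidence of binding, and a link between the levels of REST and SYN1 was not tested.

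Among the other parts of the WNT pathway, secreted inhibitors had 2 of 15 members higher in both 18 h libraries and 6 lower. Over all genes these shares were 19.3% and 21%. SFRP1, which binds WNT ligands outside the cell, had 170 and 110 CPM at 18 h, against 826 and 420 CPM at 6 h (log2 -1.72, SE 0.29, adjusted p = 0.16). SHISA2, whose frog relative holds Frizzled and FGF receptors in the endoplasmic reticulum, had 2.27 and 0.564 CPM at 18 h, against 10.1 and 4.48 CPM at 6 h, and 36.9 and 40.4 CPM in mTeSR1. APCDD1, a membrane inhibitor, had 16.0 and 57.6 CPM at 18 h, against 10.3 and 7.61 CPM at 6 h. The members thus split, with SFRP1 and SHISA2 lower and APCDD1 higher.

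Of 18 WNT receptor genes, 7 were higher and 2 lower in both 18 h libraries, beside 19.3% and 21% of all genes. FZD8 had 4.65 and 2.65 CPM at 18 h, against 21.4 and 13.7 CPM at 6 h. FZD1 was higher in both, with 4.18 and 12.0 CPM at 18 h, against 4.06 and 1.78 CPM at 6 h, though replicate 1 was hardly above the higher 6 h library. ROR2, a receptor for WNT5A, had 15.5 and 40.3 CPM at 18 h, against 12.8 and 11.7 CPM at 6 h. Beta-catenin itself, CTNNB1, had 369 and 362 CPM at 18 h, against 474 and 351 CPM at 6 h. Among 17 genes of the beta-catenin, destruction complex and TLE list, 2 were higher and 7 lower in both, beside those same shares. TLE2, a co-repressor that TCF factors recruit, had 4.65 and 3.05 CPM at 18 h, against 11 and 10.7 CPM at 6 h. TCF7L1, a TCF factor that mainly represses, had 173 and 92.5 CPM at 18 h, against 206 and 249 CPM at 6 h. Both genes were lower in each 18 h library than in each 6 h library.

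Other signalling lists were mixed. Over all genes, 19.3% were higher and 21% lower in both 18 h libraries, the shares to set beside each count here. For NODAL and activin signalling, 6 of 18 members were higher and 4 lower in both 18 h libraries, with median log2 ratios to the repeat 2 6 h library of 0.20 in replicate 1 and -0.10 in replicate 2. LEFTY1 and LEFTY2, inhibitors of NODAL, differed between the 18 h libraries in the opposite way to TBXT. LEFTY1 had 19.1 and 1.13 CPM at 18 h, against 2.33 and 13.6 CPM at 6 h. LEFTY2 had 8.83 and 0.790 CPM at 18 h, against 2.97 and 5.39 CPM at 6 h. FST, which binds activin, had 177 and 399 CPM at 18 h, against 119 and 105 CPM at 6 h. Among 15 BMP genes 5 were higher and 3 lower, and ID2, a target of BMP signalling, had 33.2 and 77.4 CPM at 18 h, against 21.2 and 22.3 CPM at 6 h. Among 14 ERK feedback genes 5 were higher and 5 lower, and DUSP6, a phosphatase of ERK, had 19.0 and 25.6 CPM at 18 h, against 52.5 and 40.9 CPM at 6 h. The lower ERK feedback genes also included ETV5, with 17.4 and 17 CPM at 18 h, against 39.3 and 27 CPM at 6 h. Among 13 FGF genes 4 were higher and 1 lower, and among 15 Notch genes 5 were higher and 3 lower.

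For adhesion and guidance genes, 5 of 16 members of the cadherin and EMT list were higher and 1 lower in both. The shares of all genes were 19.3% and 21%. CDH11, a mesenchymal cadherin, had 17.8 and 28.8 CPM at 18 h, against 7.25 and 7.50 CPM at 6 h (log2 1.52, SE 0.25, adjusted p = 0.16). CDH2 (N-cadherin) had 55.3 and 84.3 CPM at 18 h, against 47.7 and 35.2 CPM at 6 h. CDH1 (E-cadherin) had 356 and 346 CPM at 18 h, against 307 and 306 CPM at 6 h. SNAI1, a repressor of CDH1, had 4.83 and 4.68 CPM at 18 h, against 4.70 and 5.34 CPM at 6 h, and its groups overlapped. PCDH10, a protocadherin, had 4.18 and 7.62 CPM at 18 h, against 1.24 and 1.40 CPM at 6 h. Of 32 axon guidance genes 5 were higher (15.6%) and 7 lower (21.9%), close to the shares of all genes. Of 26 collagens, laminins and integrins 8 were higher and 8 lower. In the retinoic acid list 3 of 13 were higher and 5 lower.

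Growth and metabolism lists had medians nearer to 0. Over all genes, 19.3% were higher and 21% lower in both 18 h libraries. For S phase genes the median log2 change was 0.03, with 1 of 20 higher and 3 lower. For G2 and mitosis genes it was -0.02, with 5 of 19 higher and 0 lower. Sterol biosynthesis genes had a median of 0.17, with 12 of 18 higher and 0 lower in both 18 h libraries, beside 19.3% of all genes higher. INSIG1, which senses sterols, had 118 and 122 CPM at 18 h, against 75.9 and 92.6 CPM at 6 h. Its 18 h libraries were alike and above both 6 h libraries, and the difference was small. Mitochondrially encoded genes had 9 of 13 higher and 0 lower, with a median of 0.04, beside the larger mitochondrial share of the repeat 2 libraries given above, whose part in this was not tested.

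The shares of all genes to set beside the next counts were 19.3% higher and 21% lower in both 18 h libraries. In the integrated stress response list 2 of 16 were higher and 8 lower in both, with a median of -0.09. TRIB3, a pseudokinase induced under stress, had 6.56 and 5.42 CPM at 18 h, against 8.27 and 10.9 CPM at 6 h. CHAC1, which degrades glutathione, had 12.0 and 10.6 CPM at 18 h, against 20.5 and 19.1 CPM at 6 h. SLC7A5, a leucine transporter, was on the other side, with 1789 and 2301 CPM at 18 h, against 1186 and 1028 CPM at 6 h. For glycolysis 2 of 18 were higher and 9 lower, and PFKP, a phosphofructokinase, had 129 and 86.6 CPM at 18 h, against 167 and 155 CPM at 6 h. PDK1, which restrains pyruvate entry into mitochondria, had 40.2 and 50.3 CPM at 18 h, against 15.1 and 21.0 CPM at 6 h (log2 1.16, SE 0.19, adjusted p = 0.16). BNIP3, a mitophagy receptor, had 55.1 and 76.4 CPM at 18 h, against 39.7 and 36.8 CPM at 6 h. Among 14 genes of glycogen metabolism, the pathway that gave GSK3 its name, 5 were higher and 5 lower. PYGM, a glycogen phosphorylase, had 3.94 and 2.54 CPM at 18 h, against 6.76 and 8.31 CPM at 6 h.

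**Figure D3:**
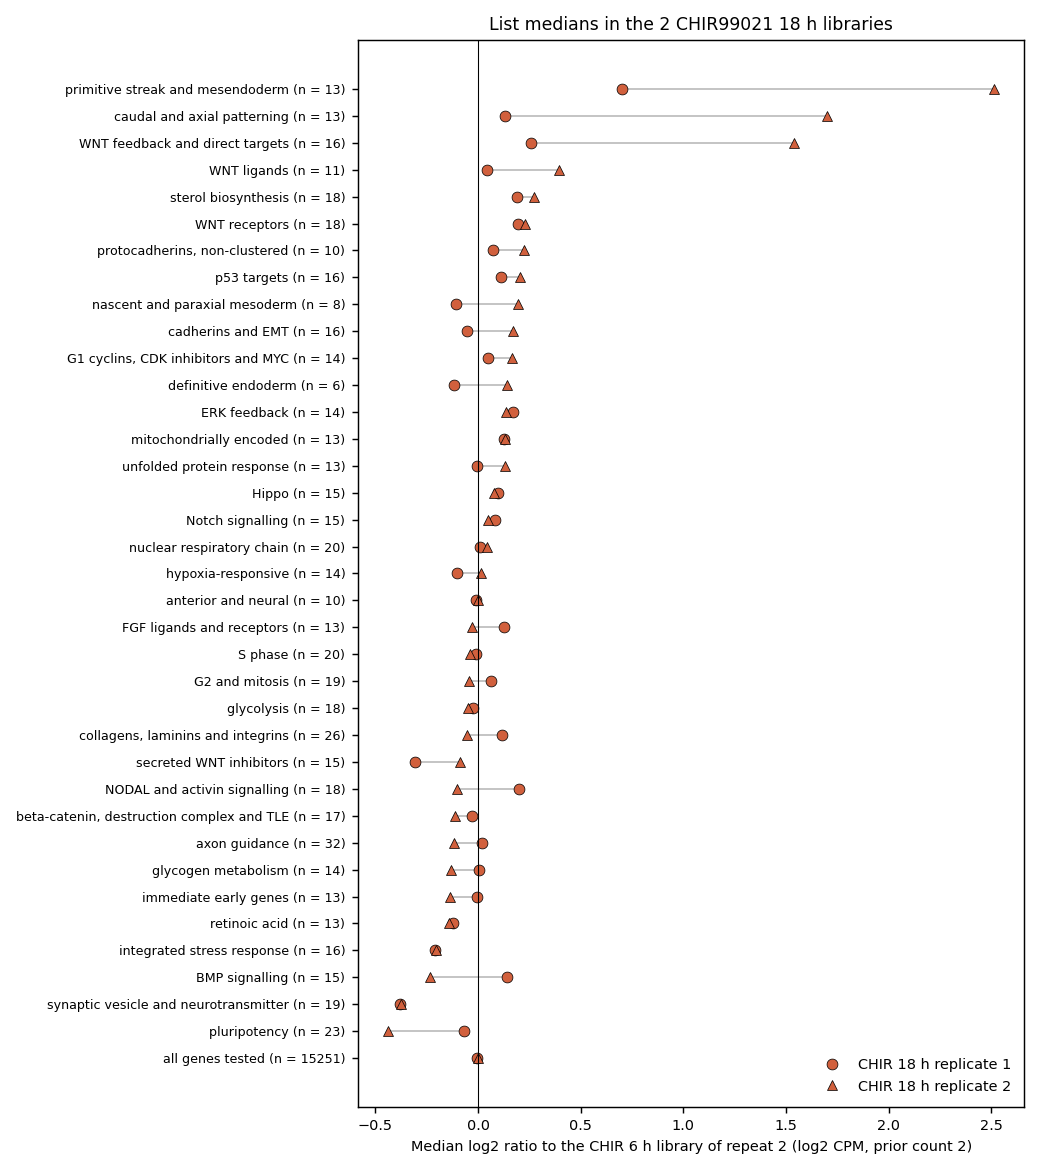
Median log2 ratio of each gene list in each CHIR99021 18 h library to the CHIR99021 6 h library of repeat 2, with replicate 1 as circles and replicate 2 as triangles. The 2 libraries lie farthest apart for streak (0.70 and 2.51), caudal (0.13 and 1.70) and WNT target genes (0.26 and 1.54), and together for synaptic genes (-0.38 and -0.37).

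Tested markers of all 6 other cell types had a median log2 change below 0, from -0.75 for trophoblast and amnion to -0.04 for cardiac muscle, against 0.0023 over all genes. The cardiac median covers 3 tested members, 1 higher and 1 lower in both 18 h libraries, and ran from -0.40 to 0.22 over the alternative fits. Fibroblast markers had 3 of 4 tested members lower in both 18 h libraries and 0 higher, beside 21% and 19.3% of all genes. The summed levels of neuron, fibroblast, trophoblast and cardiac markers were lower in each 18 h library than in each 6 h library. Neuron markers summed to 217 and 245 CPM at 18 h, against 340 and 290 CPM at 6 h, mostly TUBB3, while NEUROD1 had 0 counts in all 4 libraries. Of 6 tested neuron markers, 3 were lower in both 18 h libraries and 1 higher, beside 21% and 19.3% of all genes. MAP2, a microtubule protein, had 4.30 and 4.40 CPM at 18 h, against 32.4 and 10.1 CPM at 6 h. The higher member was ELAVL4, with 0.716 and 0.677 CPM at 18 h, against 0.216 and 0.432 CPM at 6 h. Fibroblast markers summed to 350 and 262 CPM at 18 h, against 398 and 465 CPM at 6 h, mostly THY1 and COL1A1, with 3 of 8 at 0. Neural crest markers summed to 59.6 and 23.4 CPM at 18 h, against 48.7 and 69.4 CPM at 6 h, mostly ETS1. Trophoblast and amnion markers summed to 20.5 and 20.3 CPM at 18 h, against 28.8 and 24.1 CPM at 6 h, with CGA and VTCN1 at 0. Of their 4 tested members, 2 (KRT7 and IGFBP3) were lower in both 18 h libraries and 1 higher. The higher member was TFAP2C, with 9.73 and 8.46 CPM at 18 h, against 4.92 and 3.94 CPM at 6 h. Blood and endothelium markers summed to 34.1 and 29.3 CPM at 18 h, against 19.0 and 33.3 CPM at 6 h, with 3 of 9 at 0. Cardiac markers summed to 4.30 and 4.12 CPM at 18 h, against 4.97 and 4.53 CPM at 6 h. In bulk RNA, fewer cells of a type and less RNA per cell cannot be told apart, and the part of other cells in these values was not tested.

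The same interval of WNT3A treatment used none of the same treated libraries and called 279 genes (1.83%), 87 higher (0.57%) and 192 lower (1.26%) at 18 h. That count was 22 without the repeat block, and 1 without the WNT3A 6 h replicate 2 and 467 without the WNT3A 6 h replicate 1. In CHIR99021, 70 of those 87 (80.5%) were higher in both 18 h libraries and 2 lower, beside 19.3% and 21% of all genes. Of the 192, 151 (78.6%) were lower in both and 5 higher. The direction of the fitted change was shared by 84 of 87 and 185 of 192, against 10482 of all 15251 genes. Both changes come from 1 fit with a shared repeat block. The median log2 change of the 87 was 0.66 with CHIR99021 and 1.22 with WNT3A, and that of the 192 was -0.76 with CHIR99021 and -1.37 with WNT3A. These genes were chosen for passing with WNT3A, so these medians are a description, and nothing is read from the smaller size with CHIR99021. Set against the 6 h library of repeat 2, the 18 h replicate 2 had the larger log2 ratio in size in 65 of 87 and 155 of 192, against 8917 of all 15251 genes. Not every list shared its direction. The WNT target list had a median log2 change of 1.19 with CHIR99021 and -0.14 with WNT3A. The streak list had 1.79 with CHIR99021 and 0.92 with WNT3A, and the caudal list 1.36 with CHIR99021 and 1.30 with WNT3A.

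**Figure D4:**
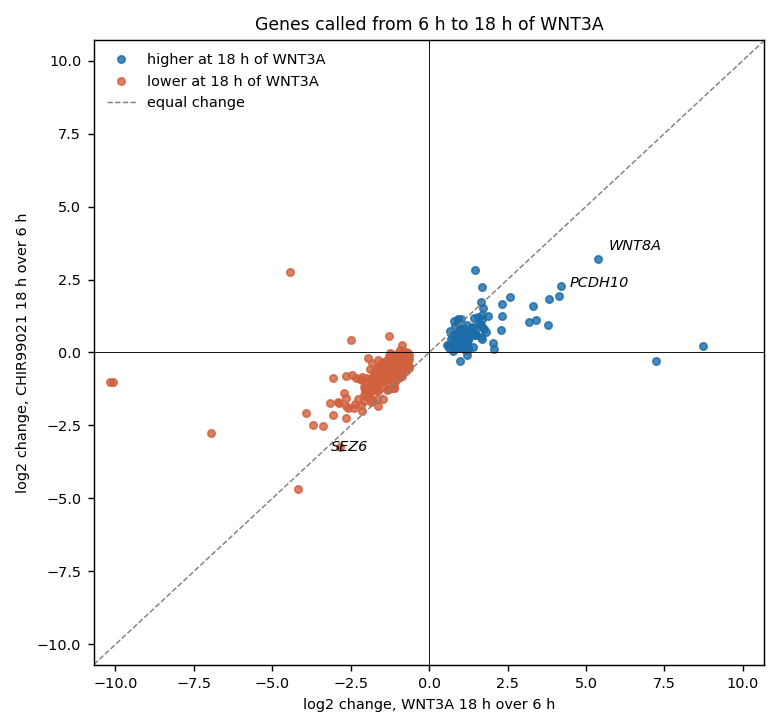
Log2 change from 6 h to 18 h with CHIR99021 (vertical) against that with WNT3A (horizontal) for the 87 genes higher and the 192 lower with WNT3A, 1 point a gene, with a dashed line of equal change. Most points lie in the same-direction quadrants (84 of 87 and 185 of 192), and the genes were chosen on their WNT3A values.

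The test of the difference between the 2 intervals called 0 genes with edgeR, 6 with DESeq2 and 0 with limma-voom, and 574 genes had an unadjusted p under 0.05. The genes with the lowest p are given as values. FGF13, a fibroblast growth factor homologue that stays inside cells, had a log2 change of 0.08 with CHIR99021 and 1.21 with WNT3A, a difference of -1.14 (95% interval -1.57 to -0.70, adjusted p = 0.84). GDF3, a TGF-beta ligand of pluripotent cells, had 15.8 and 12.1 CPM at 18 h, against 6.33 and 11.2 CPM at 6 h of CHIR99021. With WNT3A it had 20.8 and 39.4 CPM at 18 h, against 5.19 and 9.35 CPM at 6 h, a difference in log2 change of -1.71 (95% interval -2.31 to -1.12, adjusted p = 0.84). TLE3, a co-repressor, had 103 and 126 CPM at 18 h, against 164 and 136 CPM at 6 h of CHIR99021. With WNT3A it had 138 and 103 CPM at 18 h, against 381 and 458 CPM at 6 h, so its WNT3A level was already higher at 6 h. ZNF703, a transcriptional repressor, had 2.27 and 2.65 CPM at 18 h, against 2.43 and 2.27 CPM at 6 h of CHIR99021, and 1.79 and 1.27 CPM at 18 h, against 13.5 and 4.99 CPM at 6 h of WNT3A. PAQR5, a membrane progestin receptor, had 23.9 and 22.1 CPM at 18 h, against 22.2 and 24.3 CPM at 6 h of CHIR99021. With WNT3A it had 15 and 15.3 CPM at 18 h, against 31.9 and 42.1 CPM at 6 h. ATAD3C and PCDH10 were also among them. AL513523.9 and GUSBP9 had 0 counts in both WNT3A 6 h libraries, so their fitted difference is no measure of size.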

How the data were processed

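Poly-A RNA of 10 libraries was sequenced. The authors deposited one table of estimated counts per gene, and the submitters' processing notes name Salmon 1.8.0 and GRCh38. Estimates need not be whole and can be split between similar genes. Here rows that share a symbol were summed and rounded (37951 identifiers, 35940 symbols). Genes passed filterByExpr (minimum count 10, minimum total 15), which left 15251. edgeR 4.0.16 (R 4.3.3, limma 3.58.1) fitted group and biological repeat to all 10 libraries with TMM scaling and robust quasi-likelihood. Adjusted p is Benjamini-Hochberg over all genes tested, threshold 0.05, and SE is the log2 change divided by the square root of F. The block was kept because same-numbered libraries deviated together (6 pairs, r 0.261 to 0.595) and the labels use the number for a separate biological repeat. List ratios to 1 library use log2 CPM with a prior count of 2. Coordinates are from GENCODE 29, and promoters from RefSeq GRCh38.p14.

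The fit was tested on simulated data. It recovered 62.7% of simulated 2-fold, 89.6% of 4-fold and 95.5% of 8-fold changes, with 10 false calls in 15068 genes. Named genes were those past the threshold, list members past it, up to 4 members of highest mean level in lists with none, the 6 lowest adjusted p per direction of the difference, and 12 WNT, streak and pluripotency genes. Others were named after their values were seen. Members and lists were chosen with earlier results of these data known. DESeq2 1.42.0, limma-voom, other scalings and filters, single identifiers, subsets of libraries and leaving out each library were alternatives.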

Additional observations from a re-analysis of the deposited data

Results flagged for a closer look

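The 73 genes screened were those past a threshold, fixed by name, or of lowest p for the CHIR99021 change or for the difference from WNT3A. In 5 of them both CHIR99021 18 h libraries lay on one side of both 6 h libraries. Both WNT3A 18 h libraries lay on the other side of theirs. The same held for 653 of all 15251 genes tested. KLF5, MEIS3, FP565260.2 and GUSBP9 were chosen by the p of the difference, which favours opposite directions, so the 2 counts are not like for like. No difference among the 5 passed edgeR's test (adjusted p 0.84 or above). NKD1 had a log2 change of 1.51 with CHIR99021 and -0.96 with WNT3A, a difference of 2.469. KLF5, a zinc finger factor, had 7.88 and 11.2 CPM at 18 h, against 7.35 and 5.61 CPM at 6 h of CHIR99021, and 7.72 and 8.75 CPM at 18 h, against 19.2 and 20.6 CPM at 6 h of WNT3A, a difference in log2 change of 1.821. MEIS3, a homeobox factor, had 8.71 and 9.54 CPM at 18 h, against 19.2 and 11.2 CPM at 6 h of CHIR99021, and 33.1 and 23.3 CPM at 18 h, against 20.1 and 9.51 CPM at 6 h of WNT3A, a difference of -1.275. FP565260.2 had a difference of 7.198 at levels of at most 2.41 CPM. GUSBP9, a pseudogene with near-identical copies, had a fitted difference of -7.513 that depends on 0 counts in both WNT3A 6 h libraries.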

How the results depend on the processing

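SEZ6 had the same direction in all 21 alternatives (log2 -2.54 to -2.34) and passed in 7 of them (adjusted p 1.1e-07 to 0.52). For CHIR99021, 0 genes were called without the replicate block, with limma-voom, with one row per Ensembl identifier, in repeat 2 alone and in the CHIR99021 libraries alone, against 21 with no filter on low counts and 134 with DESeq2. For WNT3A the count was 22 without the replicate block, 479 with no filter, 923 with DESeq2, 168 per identifier and 2671 in repeat 2 alone, where the CHIR99021 18 h pair alone gives the spread. For the difference it was 1 with no filter, 6 with DESeq2, 1 per identifier and 777 in repeat 2 alone. Leaving out 1 library gave 0 to 83 for CHIR99021, 1 to 467 for WNT3A and 0 to 6 for the difference, with 83 and 6 without the CHIR99021 18 h replicate 1. Without the mTeSR1 and WNT3A 6 h libraries of repeat 2, chosen after seeing the data, these were 29, 146 and 11. The cause was not tested. The median log2 change ran from 0.72 to 2.25 for streak, 0.31 to 1.79 for WNT target, 0.36 to 3.13 for caudal and -0.65 to -0.26 for synaptic genes. Of 291 genes in the tables of values, 214 had the same sign in all alternatives and 77 did not, and none of the 77 passed the test in the fit as reported. Among them EVX1 ran from -1.84 to 6.85, and POU5F1 had the same sign in 16, NANOG in 17, CTNNB1 in 18 and SNAI1 in 18 of 21.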
